A study of Drosophila melanogaster with 6 samples.

Results

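Blood-brain barrier and septate junction genes were followed in head RNA of *Drosophila melanogaster* males: the barrier transporter gene Mdr65 and 9 genes of septate junction proteins (Nrx-IV, Nrg, cora, sinu, kune, Lac, Cont, vari and Gli). They were taken by FlyBase identifier, 10 of the 17753 genes in the deposited count table, and all 10 had counts in every library and passed the filter on low counts. Flies of both groups carried Repo-GeneSwitch, which acts in all glia once the drug RU486 turns it on, together with an RNA interference construct that targets Ugt35b. The RU486 group received the drug and the EtOH group the ethanol solvent, and each group has 3 libraries of day 10 flies, each from 10 flies and 500 ng of RNA. The labels give the tissue as head, while the extraction protocol speaks of brains. The study's design ties the glial knockdown to a shorter life and asks which transcripts change with it. Flies given RU486 without the construct were not analysed here, so the drug and the knockdown cannot be told apart. The labels do not say whether libraries of a group came from separate cultures, and p-values therefore reflect library-to-library spread, part of which may be technical.

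The insect brain is sealed from the hemolymph by a sheet of subperineurial glia beneath the outer perineurial glia. Neighbouring subperineurial cells are joined by pleated septate junctions, ladder-like contacts built from adhesion proteins, claudins and cytoplasmic scaffolds, which block passage between the cells, while efflux pumps of the ABC family such as Mdr65 expel lipophilic compounds that enter them. The junction proteins are not limited to glia. Epidermis, trachea, salivary gland and hindgut have septate junctions too, and Nrg, Nrx-IV and Cont are known from neurons or other cells as well. In head RNA, fewer barrier cells and less RNA per cell cannot be told apart, nor can glial from epithelial transcripts of the same gene.

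Total counts ran from 10156909 to 10633167 in the RU486 libraries and from 11689966 to 12636787 in the EtOH libraries. Levels are CPM, the gene's count over the library total scaled with TMM factors, and a gene was called when edgeR's quasi-likelihood test gave a Benjamini-Hochberg adjusted p under 0.05 over all 8945 genes tested. The target itself, Ugt35B1 in FlyBase, was lower with RU486, at 106, 83.5 and 104.5 CPM in RU486 replicates 1 to 3, against 145, 136.5 and 147 CPM in EtOH replicates 1 to 3 (log2 fold change -0.54, SE 0.09, adjusted p = 0.00865), a call lost without EtOH replicate 3 (adjusted p = 0.0566). Marker lists of other cells moved in part, where 4.36% of all genes were called higher and 3.28% lower. The summed level of 8 gut genes, without TMM factors, was 38.4, 8659 and 760 CPM in RU486 replicates 1 to 3, against 35.1 to 52.5 CPM in EtOH. Of 7 tested fat body genes 6 were lower, and the list's sum was 8140 to 8468 CPM in RU486 against 10120 to 10850 CPM in EtOH. In that list apolpp averaged 5279 CPM in RU486 and 5480 CPM in EtOH and was not called. FASN1 averaged 3044 CPM in RU486 and 4580 CPM in EtOH and was called lower. Lsp2 had 0 counts in the RU486 libraries and 2, 9 and 5 in EtOH. Fbp1 had 1 to 3 counts in each library. Lsp2 and Fbp1 were not tested. None of the tested eye (7), muscle (8) or neuron (7) genes was called by edgeR. An unadjusted p under 0.05 was seen for 3, 0 and 1 of them, against 22.3% of all genes. Sums of the hemocyte list were 881 to 947 CPM in RU486 against 703 to 746 CPM in EtOH. Of 3 tested genes 1 was called higher, Ppn, which averaged 620 CPM in RU486 and 433 CPM in EtOH. Hml (log2 fold change 0.06, SE 0.09) and NimC1 (0.03, SE 0.07) were not called. Genes with long exonic sequence were higher relative to those with short in all 3 RU486 libraries and in EtOH replicate 2. The median log2 deviation of the longest 25% of genes was 0.03 to 0.06 in RU486 and 0.08 in EtOH replicate 2. It was -0.12 and -0.11 in EtOH replicates 1 and 3.

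Mdr65 rose with RU486 and was the 1 member called. Mdr65 (FBgn0004513, chromosome 3L, 6240500 to 6245746, minus strand of the BDGP6 build) codes for an ABC transporter related to mammalian P-glycoprotein, and its barrier role is known from drug exclusion in flies. Its level was 137, 158 and 130 CPM in RU486 replicates 1 to 3, against 71.6, 70.4 and 77.3 CPM in EtOH replicates 1 to 3. Every RU486 library thus lay far above every EtOH library, and the gap between the groups was wider than the spread within either. The means were 142 ± 14.5 CPM in RU486 and 73.1 ± 3.66 CPM in EtOH (SD, n = 3 each), a 1.94-fold difference (95% interval 1.70 to 2.21) with a log2 fold change of 0.95 (SE 0.08) and an adjusted p of 0.000324 by edgeR. By p-value it ranked 41 of the 8945 genes tested, and by size it ranked 119 among the 390 genes called higher.

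Raw counts of Mdr65 were also set against those of repo and Gli, which differed little between the groups (log2 fold changes 0.13 and 0.22). Glial genes that were themselves called, such as bdl (0.73) and wrapper (-2.10), were not used. For each count of the pan-glial gene repo there were 2.47, 2.55 and 2.40 counts of Mdr65 in the RU486 libraries, against 1.38, 1.36 and 1.46 in the EtOH libraries. Relative to Gli, the tricellular junction gene of the same glia, the ratio was 2.26, 2.20 and 2.06 in RU486, against 1.30, 1.24 and 1.39 in EtOH. These ratios depend on no scaling factor, and neither overlapped between the groups. They reuse the Mdr65 counts and are no separate evidence of its rise. Gut transcripts were abundant in RU486 replicate 2, where Mdr65 was highest. In RU486 replicate 1 the gut sum was within the EtOH range and Mdr65 was at 137 CPM. Without RU486 replicate 2 the log2 fold change was 0.87 (adjusted p = 0.000484). Mdr65 passed in each of 18 alternatives, 6 of them with 1 library removed, with log2 fold changes from 0.84 to 1.01.

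**Figure D1:**
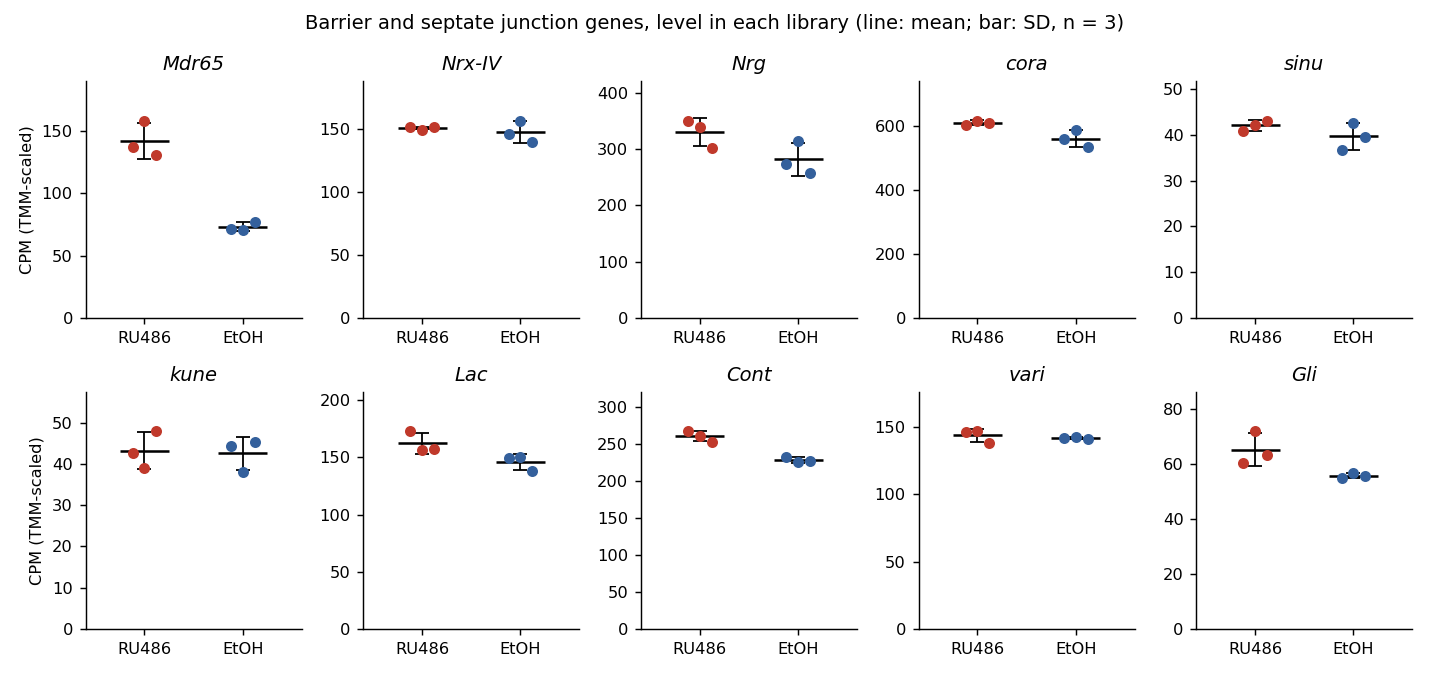
Level of the 10 members in each library, in CPM with TMM factors on axes that start at 0, RU486 on the left and EtOH on the right of each panel. Points are libraries, lines means and bars SD (n = 3). The Mdr65 points, at 130 to 158 CPM in RU486 and 70.4 to 77.3 CPM in EtOH, stand clearly apart, whereas the other panels show small or overlapping differences.

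The 9 septate junction genes did not change by the test. Of the 10 members, 1 was called higher and 0 lower, whereas of all genes tested 7.64% were called, 4.36% higher and 3.28% lower. The log2 fold changes of the 9 ran from 0.02 to 0.23 with a median of 0.12, against a median of 0.00 over all genes tested. Taken without sign, their median size was 0.121, close to the 0.139 of all genes. With edgeR, 3 of the 9 (Nrg, Cont and Gli) had an unadjusted p under 0.05, against 22.3% of all genes, and 0 of the 9 were called by the DESeq2 Wald test or limma-voom, which called 9.77% and 7.47% of all genes. The widest limits of their 95% intervals were -0.22 (kune) and 0.46 (Nrg), so a change of the size seen for Mdr65 lay outside the interval of each of the 9.

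Among the adhesion proteins of the junction, Neurexin IV and Contactin form a complex with Neuroglian. Nrx-IV (FBgn0013997, chromosome 3L, 12146519 to 12156990, plus strand), whose product spans the membrane and anchors the complex, was nearly level, at 152, 150 and 152 CPM in RU486, against 146, 157 and 140 CPM in EtOH. The RU486 values lay within the EtOH range (log2 fold change 0.03, SE 0.07, adjusted p = 0.846). Cont (FBgn0037240, chromosome 3R, 4381306 to 4387018, plus strand), the GPI-anchored Contactin, was at 267, 260.5 and 252.5 CPM in RU486, against 232, 226 and 226 CPM in EtOH. Its groups did not overlap, but the 1.14-fold difference did not pass over all genes (log2 fold change 0.19, SE 0.07, 95% interval 0.03 to 0.35, adjusted p = 0.154).

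Nrg, the fly L1-type cell adhesion molecule, which has a form confined to neurons and a more widespread one, showed the largest difference of the 9. Nrg (FBgn0264975, chromosome X, 8517373 to 8555170, plus strand) was at 350.5, 339 and 303 CPM in RU486, against 273, 313 and 258 CPM in EtOH. EtOH replicate 2 reached into the RU486 range, so the groups overlapped (log2 fold change 0.23, SE 0.10, adjusted p = 0.215). EtOH replicate 2 was the EtOH library with the highest values for genes of long exonic sequence. Without it Nrg passed (log2 fold change 0.32, adjusted p = 0.0409), in a fit that called 9.39% of all genes higher. Without replicate 2 of both groups, where 9.20% were called higher, Nrg passed as well (0.30, adjusted p = 0.0294). Nrg has the longest exonic sequence of the members, 9991 bases over all its annotated transcripts. After a correction for the exonic length of each gene its log2 fold change was 0.08 (adjusted p = 0.581). The counts are per gene, so the neuronal and general forms were not told apart.

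The cytoplasmic side of the junction was represented by cora and vari. Coracle, a FERM-domain protein of the band 4.1 family that binds Neurexin IV, is coded by cora (FBgn0010434, chromosome 2R, 19229063 to 19243751, plus strand), which was at 602, 617 and 610 CPM in RU486, against 559.5, 589 and 533 CPM in EtOH. All RU486 libraries lay above all EtOH libraries, by a margin smaller than the range within EtOH (log2 fold change 0.12, SE 0.07, adjusted p = 0.382). Varicose, a membrane-associated guanylate kinase scaffold, is coded by vari (FBgn0250785, chromosome 2L, 20788662 to 20797042, minus strand). Its level was 146, 147 and 138 CPM in RU486, against 142, 143 and 141 CPM in EtOH, so the EtOH values lay inside the RU486 range (log2 fold change 0.02, SE 0.06, adjusted p = 0.899). Other genes overlap 15.2% of the exonic bases of vari, and how reads in shared bases were counted is not given in the sources used here.

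Claudins are small proteins with 4 membrane spans that set the paracellular seal. Of the fly claudin genes among the members, sinu (FBgn0010894, chromosome 3L, 5559470 to 5561598, minus strand) was at 40.9, 42.2 and 43.1 CPM in RU486, against 36.7, 42.6 and 39.5 CPM in EtOH (log2 fold change 0.09, SE 0.08, adjusted p = 0.601). The other, kune (FBgn0033032, chromosome 2R, 5671741 to 5672800, plus strand), was at 42.6, 39.1 and 47.9 CPM in RU486, against 44.3, 38.0 and 45.4 CPM in EtOH (log2 fold change 0.02, SE 0.10, adjusted p = 0.937). Both overlapped between the groups. The claudin gene pck, also called megatrachea and not a member, differed by more: it was at 37.5, 37.7 and 38.4 CPM in RU486, against 28.8, 31.3 and 26.9 CPM in EtOH. It rose by the test (log2 fold change 0.38, SE 0.08, adjusted p = 0.0221), but the call was lost without EtOH replicate 1 (0.115), EtOH replicate 3 (0.117) or RU486 replicates 1 (0.101), 2 (0.0698) or 3 (0.0880).

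Lachesin and Gliotactin complete the members. Lac (FBgn0010238, chromosome 2R, 12453190 to 12465630, plus strand), an immunoglobulin-family adhesion protein of the junction, was at 173, 157 and 157.5 CPM in RU486, against 150, 150 and 138 CPM in EtOH. The groups did not overlap, yet the gap between them was smaller than the range within either group (log2 fold change 0.15, SE 0.07, adjusted p = 0.260). Gli (FBgn0001987, chromosome 2L, 15756002 to 15762758, minus strand) codes for a cholinesterase-like membrane protein of the tricellular corners where 3 cells meet. It was at 60.6, 72.0 and 63.2 CPM in RU486, against 55.1, 56.9 and 55.6 CPM in EtOH. Every RU486 library was above every EtOH library, and RU486 replicate 2 was well above the others (log2 fold change 0.22, SE 0.08, 95% interval 0.03 to 0.42, adjusted p = 0.155). Without RU486 replicate 2 the log2 fold change of Gli was 0.15. The tricellular partners bark, at 59.7 to 67.6 CPM in RU486 and 44.7 to 60.1 CPM in EtOH, and M6, at 35.2 to 41.7 CPM in RU486 and 37.4 to 46.2 CPM in EtOH, overlapped between the groups (adjusted p = 0.234 and 0.765).

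For 5 of the 10 members (Mdr65, cora, Lac, Cont and Gli), every RU486 library lay above every EtOH library. Over all genes tested 27.3% had groups that did not overlap, 13.9% with RU486 above and 13.5% below. All 10 log2 fold changes were above 0, as were 4525 of the 8945 over all genes. Of the 9 junction genes, all 9 were above 0 at TMM scaling, 8 with library size alone or with the length correction and 6 with upper-quartile factors. Their median was 0.09 both with upper-quartile factors and with the length correction. The length correction gave lower values for Nrx-IV (-0.04), Nrg (0.08), cora (0.03), Cont (0.13) and Gli (0.17), and higher ones for sinu (0.10), kune (0.09) and Lac (0.17), with vari at 0.02 in both fits. Mdr65 was at 0.92 and 0.91 under these settings.

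**Figure D2:**
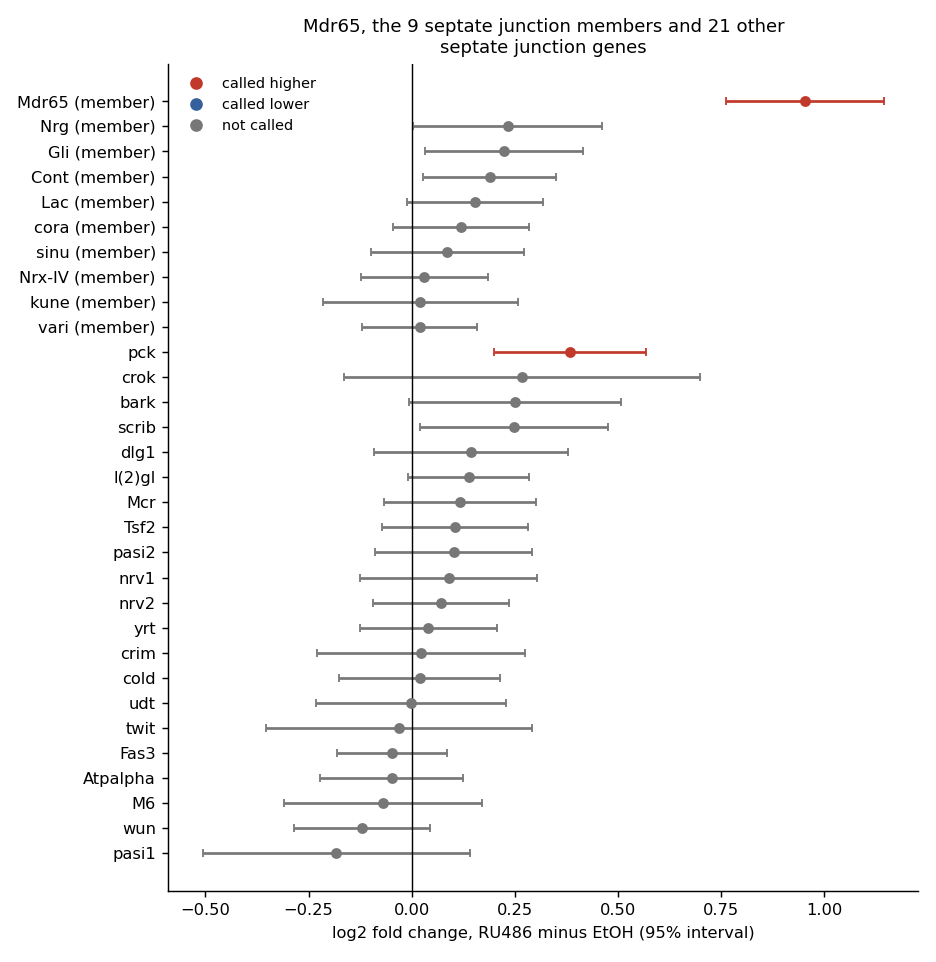
Log2 fold changes, RU486 minus EtOH, with 95% intervals for Mdr65, the 9 septate junction members and 21 other septate junction genes. Colour marks the edgeR call at an adjusted p under 0.05. Mdr65 at 0.95 stands alone on the right, pck at 0.38 is the other gene called, and the intervals of the 9 junction members end at or below 0.46.

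Most genes of a wider list of septate junction genes were not called either. Of 23 listed genes, 22 were tested, 1 (pck) rose, 0 fell and 21 did not pass, with a median log2 fold change of 0.08. Of all genes tested, 4.36% were called higher and 3.28% lower. Of these 22, 4 had RU486 wholly above EtOH (pck, scrib, l(2)gl and Mcr) and 1 (wun) wholly below. The shares over all genes were 13.9% and 13.5%. With all libraries, 2 of the 22 had an unadjusted p under 0.05 by edgeR, against 22.3% of all genes. Without RU486 replicate 2 none was called by edgeR, where 3.01% of all genes were called higher and 1.83% lower. Without EtOH replicate 2 the count was 3, all higher, in a fit that called 9.39% of all genes higher. Atpalpha, the sodium pump subunit needed for junction assembly, was at 5803 to 6142 CPM in RU486, against 5721 to 6970 CPM in EtOH (log2 fold change -0.05, SE 0.08). Its beta subunit gene nrv2 was at 698 to 768 CPM in RU486, against 678 to 724 CPM in EtOH (0.07, SE 0.07). The polarity gene scrib, at 716, 720 and 681 CPM in RU486 and 576, 680 and 525 CPM in EtOH, came next to pck by p-value (0.25, SE 0.10, adjusted p = 0.183). It passed without EtOH replicate 2 (0.36, adjusted p = 0.0118). scrib has 17197 exonic bases, and with the length correction its log2 fold change was 0.03 (adjusted p = 0.833). bou, of the Ly6-like family needed for junctions, had 0 counts in every library and lies wholly inside another annotated gene, so it was treated as unmeasured. Tsp29Fa, with 4 to 35 counts per library, was left out of the plot of fold changes for its wide interval.

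Levels of different genes were compared as CPM per kb of exonic sequence, joined over all annotated transcripts of a gene. Nrg has 9 annotated transcripts, cora 6 and Mdr65 1, and the order depends on this choice of length. Lengths of single transcripts were not used. In RU486 the order was cora (101 ± 1.25), Lac (75.3 ± 4.20), Cont (54.8 ± 1.49), vari (50.1 ± 1.71), kune (40.8 ± 4.19), Mdr65 (34.3 ± 3.51), Nrg (33.1 ± 2.51), Nrx-IV (29.4 ± 0.191), sinu (20.4 ± 0.547) and Gli (14.6 ± 1.34 CPM per kb, SD, n = 3). In EtOH it was cora (92.7 ± 4.58), Lac (67.8 ± 3.20), vari (49.5 ± 0.348), Cont (48.1 ± 0.801), kune (40.2 ± 3.77), Nrx-IV (28.8 ± 1.67), Nrg (28.2 ± 2.87), sinu (19.2 ± 1.43), Mdr65 (17.7 ± 0.885) and Gli (12.5 ± 0.206 CPM per kb). Mdr65 thus stood at position 6 of the 10 in RU486 and at position 9 in EtOH. Neighbours whose ranges over libraries overlapped were kune with Mdr65 and Mdr65 with Nrg in RU486, and Nrx-IV with Nrg and sinu with Mdr65 in EtOH. All other neighbours in the order were separated within a group, though Cont and vari changed places between the groups. By mean level per kb over both groups the members reached from percentile 46.8 (Gli) to 91.6 (cora) of the genes tested.

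**Figure D3:**
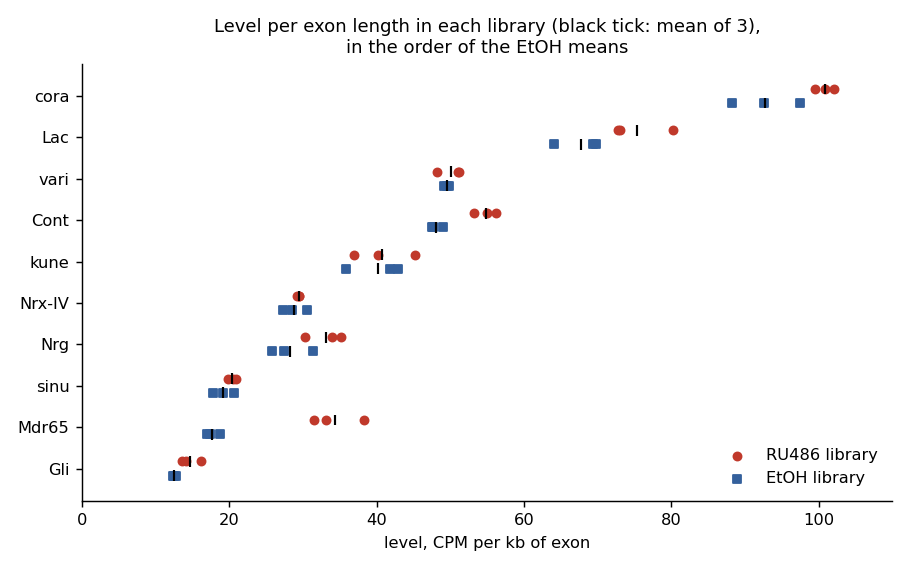
Level of each member per exon length, in CPM per kb, with RU486 libraries as circles above EtOH libraries as squares and black ticks at the means. Genes are ordered by the EtOH mean. cora is highest in both groups, and Mdr65, with at least 31.5 in RU486 and at most 18.7 in EtOH, is the member with the largest ratio of group means.

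Subperineurial glia control their junctions through the G protein-coupled receptor Moody, whose signal passes through heterotrimeric G proteins, the regulator Loco and protein kinase A. moody itself lies inside another annotated gene, had 0 counts in all 6 libraries and was treated as unmeasured, so this defining marker of the barrier glia gave no check on the cells. Of 8 tested genes of the pathway 1 rose, 0 fell and 7 did not pass, where 4.36% of all genes were called higher. Their median log2 fold change was 0.03. loco, the RGS protein that limits G protein signalling, was at 82.3, 84.8 and 77.9 CPM in RU486, against 63.3, 65.0 and 64.6 CPM in EtOH, a clear gap (log2 fold change 0.35, SE 0.07, adjusted p = 0.0145). The length correction ended the call of loco (0.22, adjusted p = 0.125), as did removing EtOH replicate 1 (0.0717), EtOH replicate 3 (0.0727), RU486 replicate 1 (0.0750) or RU486 replicate 2 (0.0731). Other genes overlap 13.5% of its exonic bases. Galphai, the inhibitory alpha subunit, was at 88.4, 87.7 and 75.1 CPM in RU486, against 66.6, 54.1 and 72.2 CPM in EtOH, and did not pass (0.38, SE 0.11, adjusted p = 0.0822), though it did so in 3 of 18 alternatives. Ggamma1 (-0.17, SE 0.07, adjusted p = 0.211) and Galphao (-0.14, SE 0.10, adjusted p = 0.493) had log2 fold changes below 0 and were not called.

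Other transporter genes linked to the barrier were called in both directions. Of 21 listed genes, 15 were tested, 1 (pippin) rose, 2 (Oatp58Dc and Oatp74D) fell and 12 did not pass. The shares over all genes were 4.36% higher and 3.28% lower. Without RU486 replicate 2, the counts were 0 higher and 4 lower, where 3.01% of all genes were called higher and 1.83% lower. Without EtOH replicate 2 they were 3 and 2, where 9.39% of all genes were called higher and 6.47% lower. Oatp58Dc, an organic anion transporter that keeps organic anions out of the fly brain, was at 55.4, 61.7 and 57.3 CPM in RU486, against 87.5, 97.0 and 89.1 CPM in EtOH. No RU486 library came near the EtOH range (log2 fold change -0.65, SE 0.08, adjusted p = 0.00110). Oatp74D, the ecdysone importer, was at 44.9, 36.4 and 43.0 CPM in RU486, against 62.5, 68.9 and 58.8 CPM in EtOH (-0.61, SE 0.10, adjusted p = 0.00680). Both passed in each of the 18 alternatives, with log2 fold changes from -0.70 to -0.60 for Oatp58Dc and from -0.69 to -0.46 for Oatp74D.

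The closest relatives of Mdr65 in the list are the ABC transporter genes Mdr49 and Mdr50. Mdr49 was at 38.9, 56.2 and 45.0 CPM in RU486, against 63.9, 70.5 and 57.6 CPM in EtOH. The groups did not overlap, with RU486 below, but the difference did not pass (log2 fold change -0.45, SE 0.14, adjusted p = 0.0812). For each count of Mdr49 there were 3.51, 2.81 and 2.90 counts of Mdr65 in RU486, against 1.12, 0.999 and 1.34 in EtOH. How reads shared by related genes were counted is not given in the sources used here. pippin, a carbohydrate transporter of the barrier glia, rose, at 41.5, 42.8 and 43.5 CPM in RU486 against 34.1, 32.5 and 28.6 CPM in EtOH (0.43, SE 0.09, adjusted p = 0.0188). That call is uncertain, since an antisense RNA overlaps 79.2% of the exonic bases of pippin and whether the counting used strand is not given in the sources used here. It was lost without EtOH replicate 3 (0.0806) or RU486 replicates 1 (0.0633), 2 (0.0514) or 3 (0.0760).

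Ncc69, a glial sodium-potassium-chloride cotransporter gene, was higher in every RU486 library, at 347, 374 and 350.0 CPM against 283, 305 and 289 CPM in EtOH, without passing (log2 fold change 0.29, SE 0.08, adjusted p = 0.0608). It passed with the DESeq2 Wald test (adjusted p = 0.0119) and limma-voom (0.0389), and in edgeR without EtOH replicate 2 (0.0172). The sugar transporter genes Tret1-1 and Tret1-2 lie inside another gene, had 0 counts and were treated as unmeasured.

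**Figure D4:**
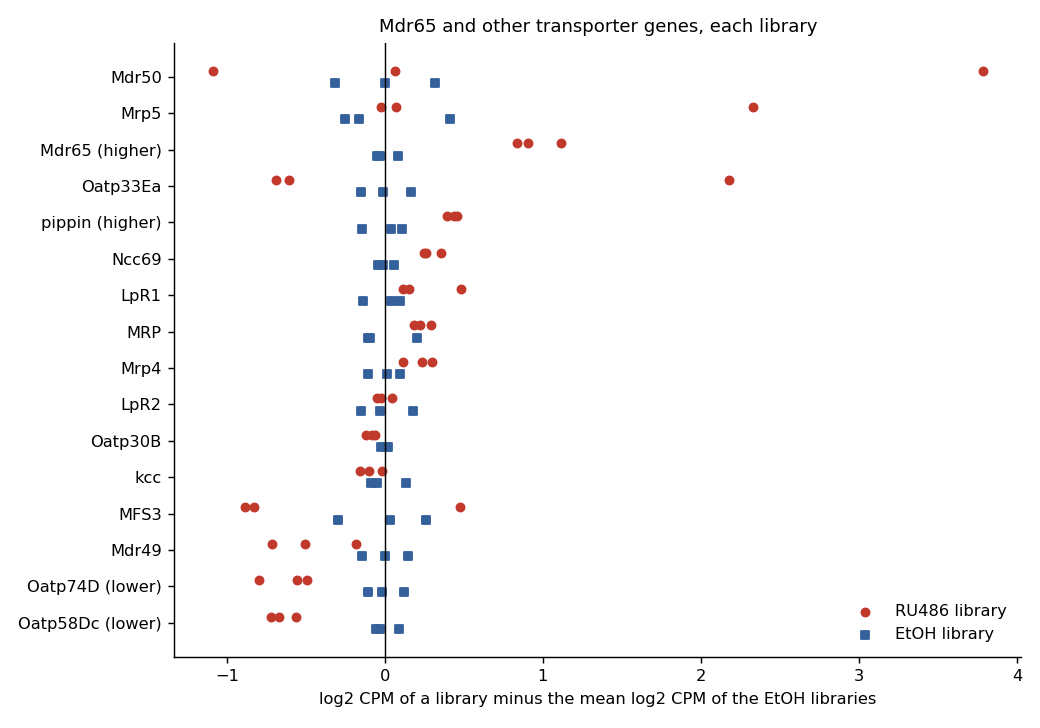
Mdr65 and 15 other transporter genes, each library's log2 CPM minus the mean log2 CPM of the EtOH libraries, with RU486 as circles above EtOH as squares and the edgeR call after the name. The 3 RU486 circles of Mdr65 lie together on the right and those of Oatp58Dc and Oatp74D together on the left, whereas Mdr50, Mrp5, Oatp33Ea and MFS3 have 1 circle, RU486 replicate 2, far to the right of their other circles.

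Several transporter genes were high in RU486 replicate 2 alone, the library rich in gut transcripts. Mdr50 had 2.42, 31.7 and 1.09 CPM in RU486 replicates 1 to 3, against 1.85, 2.31 and 2.87 CPM in EtOH. Mrp5 was at 28.1, 134.5 and 26.3 CPM in RU486, against 23.9, 35.6 and 22.5 CPM in EtOH, and Oatp33Ea at 8.02, 58.5 and 8.48 CPM in RU486, against 11.7, 14.5 and 12.8 CPM in EtOH. None of these was called. Smooth septate junctions are another form of the junction, found in parts of the gut, and its measured genes followed the gut list. mesh was at 1.84, 96.0 and 7.50 CPM in RU486, against 0.965, 1.28 and 1.24 CPM in EtOH. hoka had 0, 214 and 40 counts in RU486, against 2 counts in each EtOH library. Ssk and Tsp2A lie inside other genes and were unmeasured. Among the members, Mdr65 (158 CPM, against 137 and 130 CPM in RU486 replicates 1 and 3), Gli (72.0 CPM, against 60.6 and 63.2 CPM), cora (617 CPM, against 602 and 610 CPM) and vari (147 CPM, against 146 and 138 CPM) were highest in RU486 replicate 2 among the RU486 libraries. The other 6 members were highest in RU486 replicate 1 or 3. Of the other septate junction genes, Tsp29Fa had 11, 35 and 4 counts in RU486 replicates 1 to 3. The part of gut transcripts in the values of Gli and Mdr65 in RU486 replicate 2 was not tested beyond the fits without it.

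**Figure D5:**
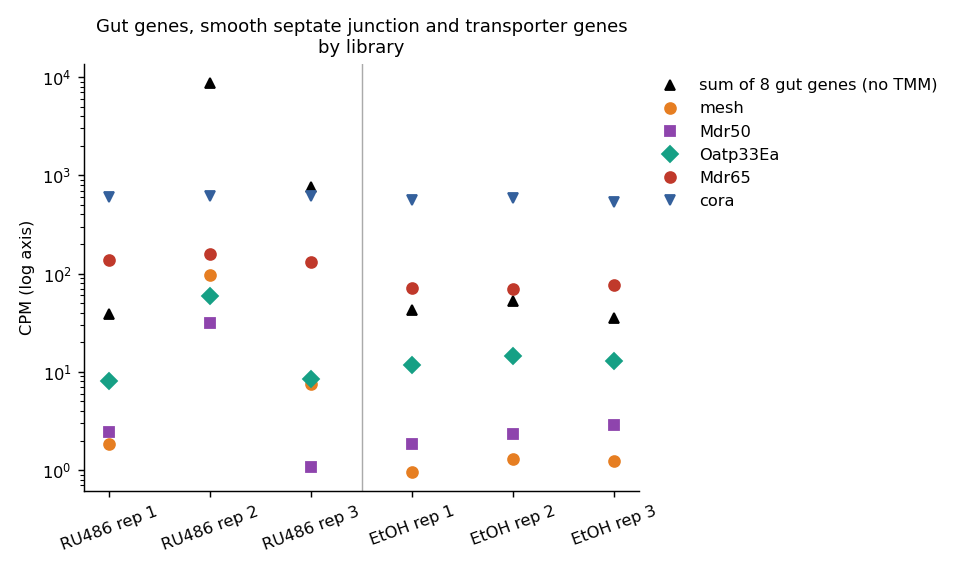
Level in each library on a log axis, RU486 libraries left of the line and EtOH libraries right of it. Triangles are the sum of 8 gut genes without TMM factors, and the other symbols are single genes in CPM. mesh, Mdr50 and Oatp33Ea peak with the gut sum in RU486 replicate 2, while Mdr65 is at 130 to 158 CPM in all 3 RU486 libraries and cora is nearly level across all 6.

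Trachea and epidermis are the other places where pleated septate junctions are well known, and 3 of 12 tested genes rose with RU486, 0 fell and 9 did not pass, where 4.36% of all genes were called higher. The 12 genes had a median log2 fold change of 0.23. RU486 lay wholly above EtOH for 4 of the 12 and wholly below for 2, against 13.9% and 13.5% of all genes. The list's sum was 1226 to 1308 CPM in RU486 against 1012 to 1324 CPM in EtOH. Without RU486 replicate 2, where 3.01% of all genes were called higher, the count that rose was 2. Without EtOH replicate 2, where 9.39% of all genes were called higher, it was 6. serp and verm code for chitin deacetylases whose secretion into the tracheal lumen is known to need septate junction proteins. serp was at 53.4, 52.6 and 46.7 CPM in RU486, against 26.9, 28.1 and 25.4 CPM in EtOH (log2 fold change 0.93, SE 0.09, adjusted p = 0.000389), a 1.90-fold difference that was called in all 18 alternatives. verm was at 46.6, 46.1 and 41.9 CPM in RU486, against 32.9, 34.5 and 29.9 CPM in EtOH (0.47, SE 0.09, adjusted p = 0.0113), and it did not pass without EtOH replicate 1 (0.0623), EtOH replicate 3 (0.0646) or RU486 replicate 1 (0.0643).

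The tracheal factor gene trh passed narrowly (0.41, SE 0.11, adjusted p = 0.0496) and was called in 5 of 18 alternatives. grh, a transcription factor gene of epithelia, was at 121, 109 and 110 CPM in RU486, against 93.0, 105 and 90.2 CPM in EtOH, and did not pass (0.23, SE 0.08, adjusted p = 0.115). Without EtOH replicate 2 it passed (0.30, adjusted p = 0.0187). It was called in 2 of 18 alternatives, with log2 fold changes from 0.09 to 0.33 over the 18. The structural tracheal gene Gasp was level (0.01, SE 0.07), and btl of the same list was nearly so (0.07, SE 0.10). RU486 lay wholly below EtOH for knk (-0.53, SE 0.27), with 15 to 33 counts per library, and pio (-0.08, SE 0.07). Neither knk nor pio was called. The part of tracheal or epidermal cells in the septate junction values was not tested.

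Some markers of other glia were called. Of 9 tested genes of the glial list, 1 rose, 3 fell and 5 did not pass, where 4.36% of all genes were called higher and 3.28% lower. Those that fell were wrapper (log2 fold change -2.10, SE 0.09, adjusted p = 9.58e-06), Gat (-1.92, SE 0.10, adjusted p = 1.81e-05) and zyd (-0.89, SE 0.07, adjusted p = 0.000161), and bdl rose (0.73, SE 0.08, adjusted p = 0.000930). Gat is the GABA transporter gene of astrocyte-like glia, and zyd is known from cortex glia. By edgeR, 7 of the 9 had an unadjusted p under 0.05, against 22.3% of all genes. RU486 lay wholly above EtOH for 3 of the 9 and wholly below for 5, against 13.9% and 13.5% of all genes. repo, expressed in nearly all glia, was at 57.2 ± 4.13 CPM in RU486 and 52.1 ± 0.637 CPM in EtOH (SD, n = 3; log2 fold change 0.13, SE 0.08, adjusted p = 0.371).

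By pattern over the 6 libraries, the genes most like Mdr65 were scb (Pearson r = 0.999 of log2 CPM), tkv (0.997), Noc2 (0.997), CG6891 (0.997) and Dr (0.996). In all 214 genes had an r above 0.95. The 6 values share 1 group difference, which sets most of each r. scb, an integrin alpha subunit, averaged 83.2 CPM in RU486 and 37.1 CPM in EtOH (log2 fold change 1.16, adjusted p = 0.000545). tkv, a type I BMP receptor, averaged 182.5 CPM in RU486 and 118 CPM in EtOH (0.63, adjusted p = 0.00111). CG6891 (2.11, adjusted p = 0.000497) and the homeobox gene Dr (0.80, adjusted p = 0.00605) rose as well, and Noc2 did not pass (0.22, adjusted p = 0.190).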

How the data were processed

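RNA was sequenced from 3 RU486 and 3 EtOH libraries. The authors deposited a table of read counts per gene, which are whole numbers without normalization per the file headers and values. A stranded mRNA kit was used per the labels' protocols, and the build was BDGP6 per the submitters' processing notes. The aligner and the counting program and its strand setting are unknown, as the sources used here do not give them. Symbols were matched for 17626 of 17753 identifiers, and one, scb, was taken from the table's own name column. Coordinates are 1-based, from the Ensembl release 115 annotation of BDGP6.

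Genes were kept by filterByExpr of edgeR 4.0.16 (minimum count 10) in R 4.3.3, scaled by TMM and tested with the quasi-likelihood test, all 6 libraries in 1 fit without covariates, with p-values adjusted over all genes by Benjamini-Hochberg. The script was tested on simulated data. Alternatives used DESeq2 1.42.0 and limma 3.58.1 (voom), other scalings and filters, each library left out and a replicate block. A length correction and leaving out replicate 2 of both groups were added after seeing the data. Intervals are 95% intervals of the fit. Total counts per library of 10156909 to 12636787 set the depth.

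The members and gene lists were chosen with earlier results of these data known. Named were the members, the target, up to 4 genes of each related list with the smallest p and the 5 genes most like Mdr65. Other genes named (Mdr49, Mdr50, Mrp5, Oatp33Ea, MFS3, M6, Mcr, wun, Atpalpha, nrv2, Gasp, btl, knk, pio, Tsp29Fa, Lsp2, Fbp1, apolpp, FASN1, Ppn, Hml, NimC1, repo) and genes at 0 counts were chosen after their values were seen. A gene at 0 counts in all libraries was treated as unmeasured. Every pair of libraries within a group differed by more than sampling noise.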

Additional observations from a re-analysis of the deposited data

How the results depend on the processing

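Of the members, Mdr65 was called higher in all 18 alternatives, and the count of members called lower was 0 in each, with edgeR, the DESeq2 Wald test and limma-voom. The count called higher was 1 to 2 when 1 library was left out and 2 without replicate 2 of both groups, the second gene being Nrg. The sign changed in values that were never called: Nrx-IV was at -0.0022 with upper-quartile factors, at -0.0412 with the length correction and at -0.0071 to 0.0755 when 1 library was left out. With upper-quartile factors kune was at -0.0124 and vari at -0.0143, and vari was at -0.0010 with library size alone. The median of all genes was -0.031 with upper-quartile factors and -0.0174 with library size alone, against 0.0028 in the main fit. Leaving out 1 library gave -0.0597 to 0.0878 for kune, below 0 without EtOH replicate 2 (-0.0547) or RU486 replicate 3, and -0.0047 to 0.0471 for vari. Without replicate 2 of both groups Nrx-IV was at 0.0820. The cause was not tested. Over all genes, 683 were called, against 341 to 1441 when 1 library was left out, 1394 without replicate 2 of both groups, 321 at an adjusted p under 0.01 and 1114 under 0.1. The share of calls that were higher was 57.1%, and 48.6% with upper-quartile factors, which moved the median of all genes to -0.03. Same-numbered libraries of the groups correlated in their deviations at 0.12, 0.27 and -0.04, and differently numbered ones at -0.34 to 0.29. These values cannot decide whether same-numbered libraries were handled together, and the labels name no batch. With a replicate block, 1 member was called higher and 872 genes in all. With 3 libraries per group, differences as small as those of the 9 junction genes were not told from the spread, and a p that missed the threshold does not show that the groups were alike.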
